A study of Pseudozyma hubeiensis with 12 samples.

Results

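The response of the basidiomycete yeast Pseudozyma hubeiensis BOT-O to nitrogen starvation on xylose was measured across its annotated genes. The members are all 6689 loci of the count table, in 3 libraries from starved xylose cultures (time point 2) and 3 from exponentially growing xylose cultures (time point 1). These are 6 of the 12 libraries of the series. The other 6 hold starved and exponential cultures of the same strain on glucose and are used here only to test whether a change differed between the sugars. All cultures were grown in yeast nitrogen base with limited ammonium sulfate, so that the medium began with 80 g of carbon for each g of nitrogen, and the labels name no genetic change. The 3 replicates of each group (A, B and C) are labelled biological, and messenger RNA was selected by its poly-A tail and sequenced from a strand-marking library. Because each growth phase was sampled at its own time point, starvation cannot be told apart from the age of the culture or from the sugar left in it.

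The label of the growth medium names glucose for every sample, whereas the sugar label and the study design name xylose for these 6 libraries. The genes that start xylose use gave a check of the sugar. Levels are in CPM, reads out of each 1e6 of a library size scaled by TMM factors. xks1, which encodes xylulose kinase, had 633 ± 19.6 CPM in exponential xylose cultures and 27.7 ± 0.974 CPM in exponential glucose cultures (mean ± SD, n = 3 each). xyl2, which encodes xylitol dehydrogenase, had 1709 ± 33.9 CPM in exponential xylose cultures and 304 ± 11.1 CPM in exponential glucose cultures. Both genes were higher in the exponential xylose cultures, the direction that the sugar label gives. This check covers the exponential libraries only and not the starved ones.

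Fungi that run out of ammonium slow the synthesis of ribosomes and amino acids. They turn to other nitrogen sources, such as purines, urea, peptides and their own proteins, through permeases, hydrolases and autophagy. When sugar is still present, oleaginous and ustilaginous yeasts can divert carbon to storage fat or to glycolipids. P. hubeiensis and its relatives are known for mannosylerythritol lipids (MEL), secreted glycolipid surfactants whose genes lie in 1 cluster. Xylose enters metabolism by reduction to xylitol, oxidation to xylulose and phosphorylation, and then passes through the pentose phosphate pathway. Gene names here come from the annotation, mostly from homologues in Saccharomyces cerevisiae, and the roles given are those known from that yeast unless another is named.

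The starved xylose libraries held 18571189, 23361818 and 27322486 counted reads in A, B and C, and the exponential xylose libraries 30520858, 29744628 and 28601340. Of the 6689 loci, 5805 had enough reads to be tested, 269 had reads but were left out, and 615 had no read in any library. Changes are log2 changes, starved over exponential, with a standard error (SE) from edgeR's quasi-likelihood test, and "rose" and "fell" are written only of genes with a Benjamini-Hochberg adjusted p under 0.05. By that rule 81.3% of all tested genes changed, 40.6% up (2358 genes) and 40.6% down (2359 genes), with a median change of 0.0012. A count of changed genes in any group therefore has to be read against 40.6% in each direction. CPM is relative to the other messenger RNA of a library, after TMM scaling, so a change in the amount of RNA per cell is not seen. Percents of reads are shares of the raw counts, without that scaling. Scaling by library totals in place of TMM factors shifted the median of all genes by -0.214 on the log2 scale, and the median of every gene group by -0.22 to -0.209. At least 2-fold changes were called for 43.8% of genes, 1366 up (23.5%) and 1174 down (20.2%), and for 85% of genes no starved library overlapped an exponential one. Large changes were mostly rises: 182 genes rose at least 16-fold (3.14%), whereas 42 fell by as much (0.724%). The 10 loci with the most reads held 12.0, 10.3 and 11.3% of the reads in the starved libraries and 5.82, 5.72 and 5.92% in the exponential ones.

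**Figure D1:**
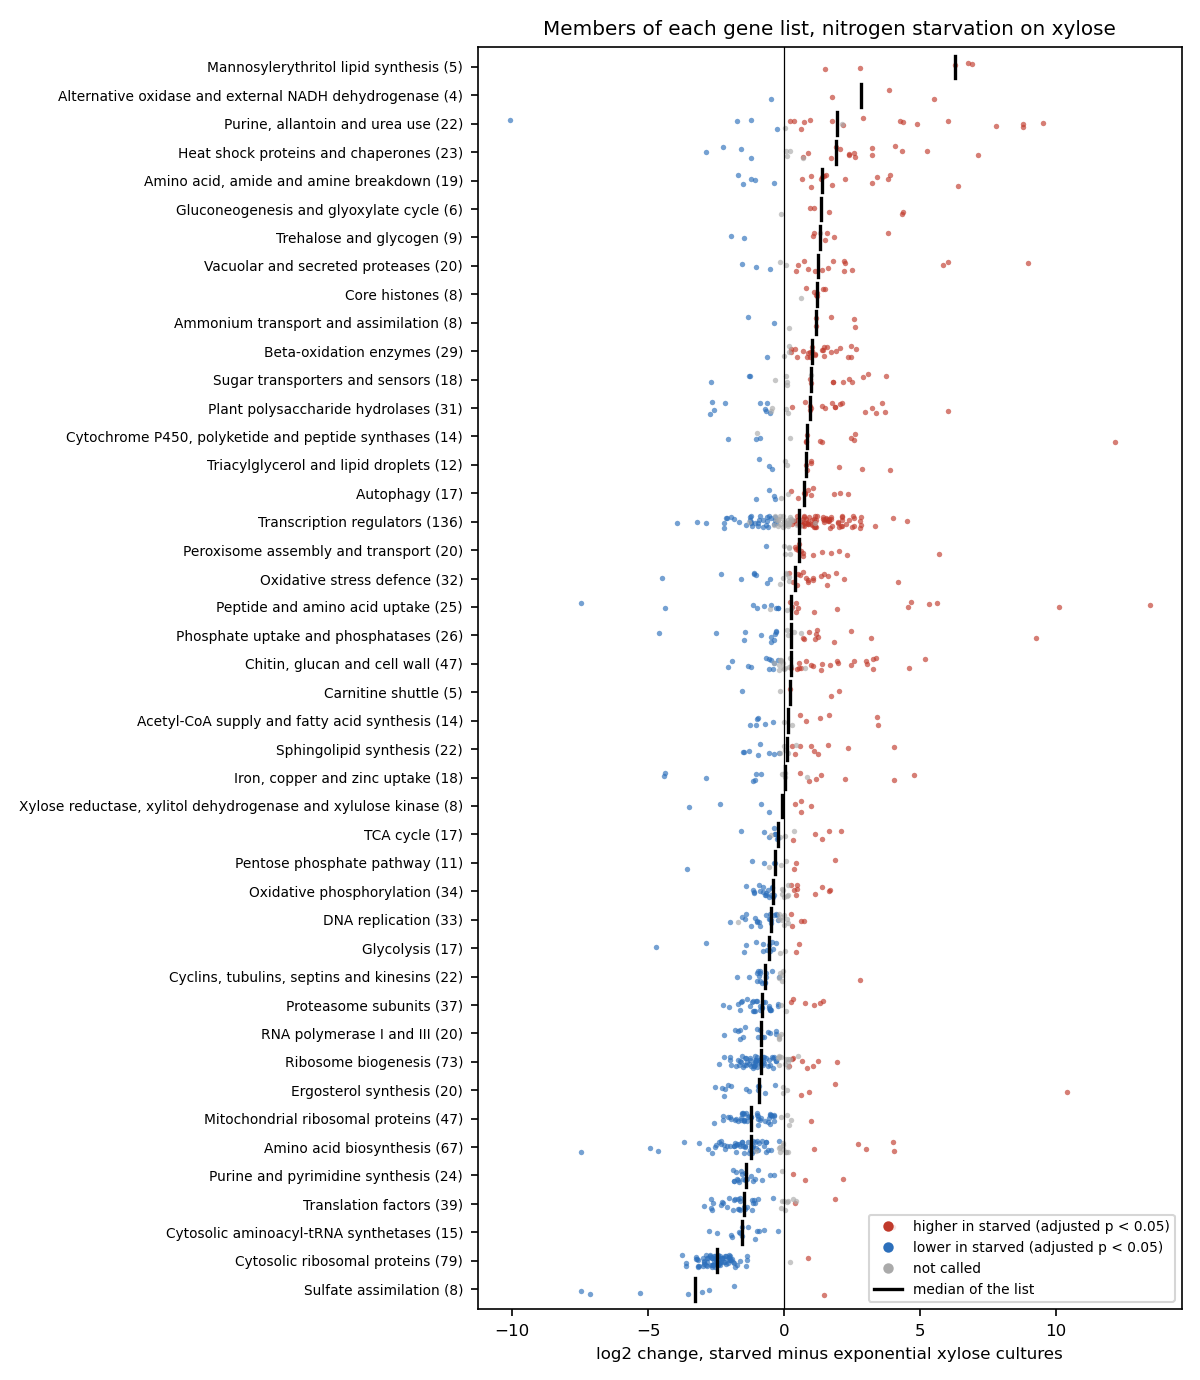
Log2 change, starved minus exponential on xylose (horizontal), of every tested member of each gene group, 1 point a gene, coloured by whether it was called higher, lower or neither, with a bar at the group's median and the number tested in brackets. The medians of nitrogen acquisition, proteases, heat shock proteins and beta-oxidation lie above 0, and those of ribosomal proteins, sulfate assimilation, translation factors and amino acid synthesis below it.

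Genes that carry xylose into metabolism changed in both directions, and xr1, xks1 and xyl2 fell. xr1, encoding xylose reductase 1, which makes xylitol from xylose, had 78.7, 88.6 and 84.6 CPM in starved cultures A, B and C, against 933, 936 and 1014 CPM in the exponential ones. Its log2 change was -3.52 ± 0.14 (adjusted p = 1.27e-12). xks1 had 118, 129 and 119 CPM in starved cultures, against 636, 650.0 and 611 CPM in exponential cultures, a log2 change of -2.37 ± 0.16 (adjusted p = 5.64e-10). xyl2 had 945, 1007 and 894 CPM in starved cultures, against 1746, 1678 and 1704 CPM in exponential cultures, a smaller fall of 0.85 ± 0.09 on the log2 scale. For all 3 genes every starved library lay below every exponential library. The group of reductases, xylitol dehydrogenases and the kinase had 8 tested members, of which 4 rose and 4 fell. Its median change was -0.08, but -0.199 without starved culture B, 0.004 without starved culture C and -0.289 under library totals. The members that rose were L-xylulose reductase (PHBOTO_005741, 0.62 ± 0.10), a further xylose reductase (xr3, 0.61 ± 0.12) and the xylitol dehydrogenase copies xyl2_4 (0.98 ± 0.22) and xyl2_2 (0.41 ± 0.15). L-xylulose reductase was listed by its name and is not among the steps of xylose use given above. The libraries of xyl2_2 overlapped between the groups, and its call was lost without starved culture A or B or exponential culture A or C (0.31 to 0.38).

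Transaldolases of the pentose phosphate pathway included a rise and a fall. nqm1, a transaldolase that rearranges sugar phosphates, had 5619, 5127 and 4902 CPM in starved cultures, against 1399, 1478 and 1386 CPM in exponential cultures, a rise of 1.88 ± 0.11. The transaldolase PHBOTO_006510 had 93.9, 106 and 100.2 CPM in starved cultures, against 1241, 1255 and 1093 CPM in exponential cultures, a fall of 3.58 ± 0.17. Neither pair of groups overlapped. Another transaldolase, PHBOTO_000815, had 18.6 ± 0.583 CPM in starved cultures and 17.7 ± 1.12 CPM in exponential cultures, and was not called. In the whole pathway 3 of 11 tested members rose and 5 fell, with a median of -0.35, whereas under library totals 1 rose and 7 fell (median -0.565). Of the oxidative enzymes that make NADPH, gnd2 (6-phosphogluconate dehydrogenase) fell by 1.17 ± 0.09 and zwf1 (glucose-6-phosphate dehydrogenase) was not called at -0.12 ± 0.08. tkl1 (transketolase) fell by 0.35 ± 0.09.

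Sugar transporters and sensors rose more often than they fell, with 10 of 18 tested members up and 3 down (median 0.99). hxt5, a hexose transporter that S. cerevisiae makes when growth slows, had 2138, 1571 and 2102 CPM in starved cultures, against 241, 213 and 239 CPM in exponential cultures, a rise of 3.07 ± 0.17. stl1, named after a yeast glycerol transporter, rose by 3.75 ± 0.18 and the maltose permease copy mal31_3 by 2.90 ± 0.09. In these 3 genes the starved libraries were all the higher ones. snf3, a sensor of low glucose, had 1640.0 ± 153 CPM in starved cultures and 1514 ± 88.9 CPM in exponential cultures and was not called.

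Most glycolytic genes fell, and most genes of gluconeogenesis and the glyoxylate cycle rose. Of 17 tested glycolytic loci 13 fell and 2 rose (median -0.54). That list takes in 4 unnamed phosphoglycerate mutase loci, a family that also holds phosphatases, and without them 10 of 13 fell and 1 rose (median -0.51). cdc19, encoding pyruvate kinase, had 908, 847 and 1034 CPM in starved cultures, against 2420.4, 2555 and 2343 CPM in exponential cultures, a fall of 1.39 ± 0.09. eno1 (enolase) fell by 0.28 ± 0.10, a change that was not called without exponential culture B (-0.21). fbp1, encoding fructose-1,6-bisphosphatase, had 2698, 2115 and 2548 CPM in starved cultures, against 117, 116 and 125 CPM in exponential cultures, a rise of 4.36 ± 0.18 (adjusted p = 2.23e-12). pck1, encoding phosphoenolpyruvate carboxykinase, had 2923, 2264 and 2712 CPM in starved cultures, against 116, 119 and 154 CPM in exponential cultures, a rise of 4.35 ± 0.22 (adjusted p = 2.27e-11). All starved libraries lay above all exponential libraries for both of these gluconeogenic enzymes. The glyoxylate cycle enzymes icl1 (isocitrate lyase, 1.65 ± 0.11) and mls1 (malate synthase, 0.94 ± 0.11) also rose. Together 5 of 6 tested members of gluconeogenesis and the glyoxylate cycle rose and 0 fell (median 1.37), and pyc2 (pyruvate carboxylase) was not called at -0.12 ± 0.10, although it was called lower under library totals (-0.329).

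Genes of the tricarboxylic acid cycle changed in both directions. fum1, encoding fumarase, had 1547, 1167 and 1407 CPM in starved cultures, against 302, 328 and 342 CPM in exponential cultures, a rise of 2.08 ± 0.15. sdh2, encoding the iron-sulfur subunit of succinate dehydrogenase, had 1090.1, 1041 and 1075 CPM in starved cultures, against 331, 344 and 358 CPM in exponential cultures, a rise of 1.63 ± 0.11. The groups did not overlap in either gene. Among the falls were idp1 (mitochondrial NADP-dependent isocitrate dehydrogenase, -1.603 ± 0.10) and aco1 (aconitase, -0.76 ± 0.09). Over the cycle 5 of 17 tested members rose (29.4%) and 8 fell (47.1%), with a median of -0.22, against 40.6% of all tested genes in each direction. Without exponential culture B the count of falls was 5, and under library totals 4 rose and 11 fell (median -0.439). mae1, the mitochondrial malic enzyme that turns malate into pyruvate, had 1373, 1202 and 1323 CPM in starved cultures, against 101, 109.8 and 147 CPM in exponential cultures, a rise of 3.44 ± 0.22 with no overlap.

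Genes of the respiratory chain changed in both directions. Of 34 tested members of oxidative phosphorylation 9 rose (26.5%) and 18 fell (52.9%), with a median of -0.40, against 40.6% of all tested genes in each direction. Under library totals 6 rose and 22 fell (median -0.617). Grouped by product name after the values were seen, all 11 tested subunits of ATP synthase fell, with changes from -1.16 to -0.42. All 3 tested subunits of succinate dehydrogenase, which also serve the tricarboxylic acid cycle, rose, with changes from 1.14 to 1.63. The cytochrome b-c1 complex had 4 rises and 2 falls among 7 members, cytochrome c oxidase 1 rise and 2 falls among 6, and the NADH dehydrogenase subunits 3 falls among 6. cyc7, encoding cytochrome c, had 4967, 4380.0 and 5172 CPM in starved cultures, against 1618, 1413 and 1494 CPM in exponential cultures, a rise of 1.68 ± 0.14. The alternative oxidase PHBOTO_002482, which passes electrons from ubiquinol straight to oxygen, had 4793, 4347 and 5156 CPM in starved cultures, against 98.3, 99.5 and 116 CPM in exponential cultures. This was a rise of 5.51 ± 0.21 (adjusted p = 8.57e-13), and the lowest starved library was far above the highest exponential one. The external NADH dehydrogenases, which feed electrons in from the cytosol, rose in nde1_2 (3.85 ± 0.20) and nde2 (1.77 ± 0.09) and fell in nde1 (-0.47 ± 0.15). Without starved culture C the fall of nde1 was not called (-0.32).

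**Figure D2:**
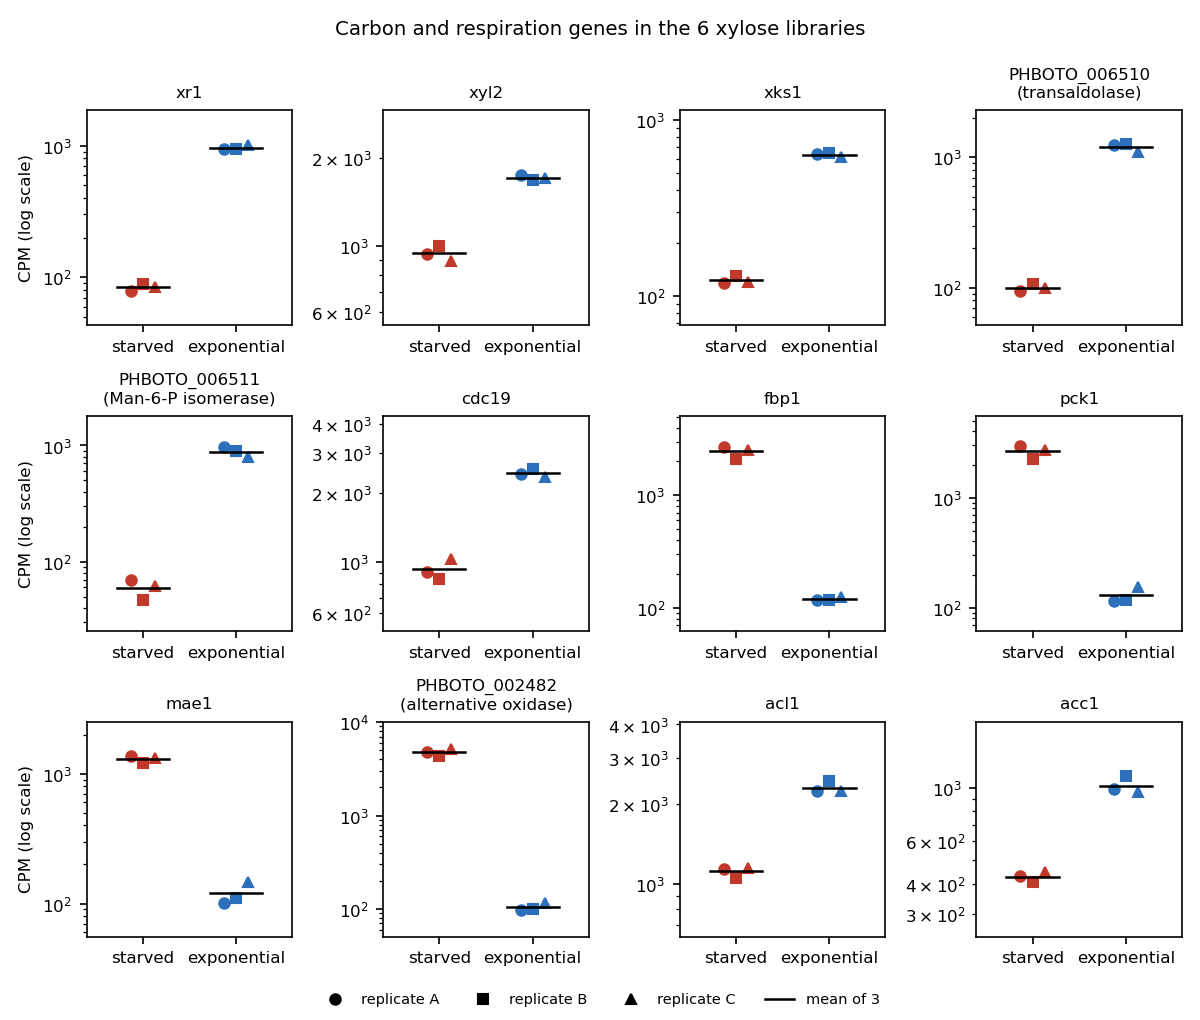
CPM (log axes, a scale for each panel) of 12 genes of xylose use, glycolysis, gluconeogenesis, respiration and fatty acid synthesis, with 1 point for each of the 3 starved and 3 exponential xylose libraries and a line at the mean. The starved libraries lie below the exponential ones for xr1, xks1 and xyl2 and above them for fbp1, pck1, mae1 and the alternative oxidase, with no overlap in any panel.

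Genes that make fatty acids and genes that store or burn them did not move together. acl1, encoding ATP-citrate lyase, which supplies cytosolic acetyl-CoA in oleaginous yeasts, had 1139, 1053 and 1149 CPM in starved cultures, against 2241, 2452 and 2239 CPM in exponential cultures, a fall of 1.05 ± 0.09. acc1, encoding acetyl-CoA carboxylase, had 429, 405 and 447 CPM in starved cultures, against 984, 1113 and 958 CPM in exponential cultures, a fall of 1.25 ± 0.09. fas1 (fatty acid synthase) fell by 0.72 ± 0.14. In these 3 genes every starved library was below every exponential one. ole1, the desaturase that makes unsaturated fatty acids, went the other way, with 1561, 1914 and 2177 CPM in starved cultures, against 568, 616 and 620.1 CPM in exponential cultures (1.65 ± 0.14). Of 14 tested members of acetyl-CoA supply and fatty acid synthesis 6 rose and 6 fell (median 0.14). The median was -0.04 without starved culture C and -0.08 under scaling by library totals, so its sign turned with both. The rise of fas2 (3.41 ± 0.10), annotated as a further fatty acid synthase subunit, belongs to a run of neighbouring loci described later.

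Storage lipid genes mostly rose. PHBOTO_004628, a perilipin that coats lipid droplets, had 2144, 2713 and 2045 CPM in starved cultures, against 311, 348 and 302 CPM in exponential cultures, a rise of 2.84 ± 0.12. The acyltransferases that finish triacylglycerol rose in lro1 (2.02 ± 0.12) and dga1 (1.00 ± 0.11), and the droplet phospholipase lpl1 rose by 3.898 ± 0.10. In the earlier steps gpt2 rose (0.84 ± 0.08), whereas sct1 (-0.93 ± 0.13) and slc1 (-0.45 ± 0.09) fell. Over this group 7 of 12 tested members rose and 3 fell (median 0.81). Lipases were split, with tgl5 up by 0.78 ± 0.08, ypr147c down by 0.57 ± 0.12 and tgl2 not called at 0.09 ± 0.10.

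Most genes of fatty acid breakdown rose. Of 29 tested beta-oxidation enzymes 25 rose and 1 fell (median 1.03). pox1, the acyl-CoA oxidase of the first step, had 679.6, 711 and 743 CPM in starved cultures, against 125, 135 and 127 CPM in exponential cultures, a rise of 2.47 ± 0.09. fox2, the hydratase-dehydrogenase of the next steps, had 365, 378 and 413 CPM in starved cultures, against 56.7, 66.7 and 60.6 CPM in exponential cultures, a rise of 2.65 ± 0.10. Neither gene's groups overlapped, and the 1 fall was a second copy, fox2_2 (-0.63 ± 0.18). Peroxisome assembly and transport showed 14 rises and 1 fall among 20 tested members (median 0.54), led by ant1_2 (5.69 ± 0.12), a copy of the peroxisomal adenine nucleotide carrier. pex11, which drives peroxisome division, rose by 1.37 ± 0.07. The carnitine acetyltransferases cat2 (1.72 ± 0.09) and yat1 (2.01 ± 0.10), which load acetyl units for transport, rose, whereas the mitochondrial carrier crc1 fell (-1.56 ± 0.08). The carnitine group held 5 tested members, 3 up and 1 down (median 0.21), and under library totals its median was -0.008, with 2 up and 2 down. Without starved culture A the median was 0.093.

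Most genes of sterol synthesis fell. Of 20 tested members 13 fell and 4 rose (median -0.94). Without 5 extra copies taken out by hand, 12 of 15 fell and 0 rose (median -1.31). All 4 rises were among the copies taken out, so the absence of rises follows from that removal. erg11, encoding lanosterol demethylase, had 103, 104 and 112 CPM in starved cultures, against 643, 614 and 612 CPM in exponential cultures, a fall of 2.55 ± 0.10. erg13 (hydroxymethylglutaryl-CoA synthase) fell by 2.22 ± 0.09 and erg25 (methylsterol monooxygenase) by 2.29 ± 0.11. The starved libraries were the lower ones in all 3 genes. Sphingolipid genes had no common direction, with 9 rises and 8 falls among 22 tested members (median 0.09, or -0.124 under library totals). The sphingoid base transporter rsb1 rose by 4.06 ± 0.10 and the sphingosine phosphate lyase dpl1 by 2.35 ± 0.13, while the ceramide synthase copy lag1_2 fell by 1.504 ± 0.13. All 5 genes of MEL synthesis rose (median 6.28), from mat1, the acetyltransferase, at 1.49 ± 0.12 to emt1, the glycosyltransferase, at 6.90 ± 0.22.

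Most genes of sulfate assimilation fell, with 7 of 8 tested members down (median -3.29). It held 0.0225, 0.0236 and 0.02198% of the reads in starved cultures A, B and C, against 0.693, 0.787 and 0.842% in the exponential ones. sul1, the sulfate permease, had 15.04, 12.01 and 14.6 CPM in starved cultures, against 1545, 2028 and 2342 CPM in exponential cultures (-7.15 ± 0.17). met3, sulfate adenylyltransferase, had 24.5, 20.8 and 24.7 CPM in starved cultures, against 848, 979 and 906 CPM in exponential cultures (-5.29 ± 0.24). The next steps fell too, in met14 (-2.77 ± 0.10), met16 (-3.55 ± 0.10) and met5 (-3.02 ± 0.10). The exception was PHBOTO_002723, an alternative sulfate transporter, with 2.52 ± 0.597 CPM in starved cultures and 0.915 ± 0.206 CPM in exponential cultures, a rise of 1.46 ± 0.45. Outside this list, 2 of the largest falls were in enzymes of sulfur release from organic compounds, the taurine dioxygenase PHBOTO_005008 (-9.97 ± 0.28) and the arylsulfatase PHBOTO_006040 (-6.75 ± 0.22).

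Metal and phosphate genes included large changes in both directions. Of 18 tested iron, copper and zinc genes 7 rose and 7 fell. Their median was 0.02, with -0.064 without starved culture A, 0.103 without starved culture C and -0.192 under library totals. zrt1, the zinc transporter, had 8269, 6049 and 6531 CPM in starved cultures, against 275, 235 and 259 CPM in exponential cultures, a rise of 4.76 ± 0.20. fth1, an iron transporter, had 15.8, 15.5 and 12.7 CPM in starved cultures, against 366, 274 and 279 CPM in exponential cultures, a fall of 4.39 ± 0.16. The multicopper oxidase fet5 fell by 4.44 ± 0.12, whereas its copy fet5_3 rose by 4.02 ± 0.18, and none of these groups overlapped. Of 26 tested phosphate transporters and phosphatases 11 rose and 11 fell. Their median was 0.24, with 0.002 without starved culture A, 0.384 without starved culture B and 0.024 under library totals. pho84, the phosphate transporter, had 85.96, 54.8 and 97.9 CPM in starved cultures, against 1948, 1859.5 and 2039 CPM in exponential cultures, a fall of 4.61 ± 0.19. The acid phosphatase pho3_2 had 9495, 6699 and 6799 CPM in starved cultures, against 14.96, 10.5 and 12.04 CPM in exponential cultures, a rise of 9.26 ± 0.29. The starved libraries of pho84 were all lower and those of pho3_2 all higher than the exponential ones.

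Most genes of purine, allantoin and urea use rose, and both they and the genes of peptide and amino acid uptake took a larger part of the reads. Of 22 tested genes of purine, allantoin and urea use 16 rose and 4 fell (median 1.96). The 23 listed loci of this group held 3.46 ± 0.245% of the reads in starved cultures, against 0.276 ± 0.0168% in exponential cultures (n = 3 each). Peptide and amino acid uptake held 2.16 ± 0.109% of the reads in starved cultures, against 0.604 ± 0.04195% in exponential cultures, although 9 of its 25 tested members fell and 13 rose. opt1, the peptide transporter with the most reads in that group, had 9426, 8068 and 9557 CPM in starved cultures, against 251, 186 and 231 CPM in exponential cultures. uga4, a permease for gamma-aminobutyrate, rose by 5.63 ± 0.13. The ammonium transporters did not share a direction. mep2, the high-affinity transporter and sensor, had 3787, 3458 and 3921 CPM in starved cultures, against 638, 604 and 657 CPM in exponential cultures (2.56 ± 0.09), whereas mep3 fell by 1.34 ± 0.08. gln1 (glutamine synthetase) rose by 1.17 ± 0.08, gdh2 (the glutamate dehydrogenase that releases ammonium) rose by 1.73 ± 0.12, and glt1 (glutamate synthase) fell by 0.39 ± 0.09. Over ammonium transport and assimilation 5 of 8 rose and 2 fell (median 1.17).

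Amino acid, amide and amine breakdown had 14 rises and 5 falls among 19 tested members (median 1.40). Its largest rise was in the amine oxidase PHBOTO_003783, with 366, 418 and 388 CPM in starved cultures, against 5.58, 4.21 and 4.198 CPM in exponential cultures (6.38 ± 0.14). The asparaginase PHBOTO_005330 rose by 3.41 ± 0.12 and the amidase amd2 by 3.83 ± 0.14. Vacuolar and secreted proteases had 15 rises and 3 falls among 20 (median 1.26). yps1, an aspartic protease anchored at the cell surface, had 637, 604 and 766 CPM in starved cultures, against 1.28, 1.54 and 1.15 CPM in exponential cultures (8.98 ± 0.15). pep4, the vacuolar protease that activates others, rose by 1.61 ± 0.09, and its copy pep4_2 fell by 1.56 ± 0.11. Autophagy genes had 11 rises and 4 falls among 17 (median 0.73). atg8, the ubiquitin-like protein of the autophagosome, had 208, 182 and 153 CPM in starved cultures, against 48.1, 44.8 and 57.9 CPM in exponential cultures (1.85 ± 0.15). A second locus annotated as atg8, PHBOTO_005562, fell by 0.39 ± 0.09.

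Most proteasome genes fell, whereas most genes of vacuolar and secreted proteases rose. Of 37 tested subunits and assembly factors 29 fell and 6 rose (median -0.82). pre5, a subunit of the core particle, had 74.03, 72.04 and 87.7 CPM in starved cultures, against 240.0, 246 and 240.0 CPM in exponential cultures (-1.63 ± 0.09). rpn8_2, of the regulatory lid, had 75.1, 63.3 and 55.3 CPM in starved cultures, against 322, 298 and 294 CPM in exponential cultures (-2.24 ± 0.11). The groups did not overlap in either gene. Among the rises were nas2, an assembly chaperone (1.42 ± 0.10), and PHBOTO_005501, annotated only as proteasome endopeptidase complex (1.31 ± 0.08). rpn4, the transcription factor that activates proteasome genes in S. cerevisiae and chosen here after its values were seen, had 94.7, 104 and 96.7 CPM in starved cultures, against 14.3, 18.4 and 16.7 CPM in exponential cultures, a rise of 2.58 ± 0.11.

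Protein synthesis gave up most of its place among the reads. The 80 listed loci of cytosolic ribosomal proteins held 3.43, 2.96 and 2.71% of the reads in starved cultures A, B and C, against 18.9, 18.1 and 18.2% in the exponential ones. Of the 79 tested, 77 fell (median -2.48) and 1 rose. Translation factors held 1.11 ± 0.0668% of the reads in starved cultures, against 3.904 ± 0.0609% in exponential cultures, with 29 of 39 down (median -1.49). tef1, the elongation factor with the most reads of any locus in all 3 exponential xylose libraries, had 5219, 5049 and 4432 CPM in starved cultures, against 15571, 16006 and 15395 CPM in exponential cultures. Ribosome biogenesis had 53 falls and 8 rises among 73 (median -0.86), with 5 rises without starved culture A, without exponential culture C or under library totals. RNA polymerases I and III had 16 falls and 0 rises among 20 (median -0.85), and mitochondrial ribosomal proteins had 42 falls and 1 rise among 47 (median -1.21), with 2 rises without starved culture B, without exponential culture A or under RLE factors. A member of the biogenesis list that rose was nog2_2, a copy of a nucleolar GTPase, with 1823, 1714 and 1949 CPM in starved cultures, against 514, 471 and 449 CPM in exponential cultures (1.94 ± 0.11). Of 15 cytosolic aminoacyl-tRNA synthetases 14 fell and 1, the aspartate enzyme copy dps1_2, rose by 4.01 ± 0.15. Most members fell as well in amino acid biosynthesis (52 of 67 down, median -1.24) and in purine and pyrimidine synthesis (20 of 24 down, median -1.41).

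**Figure D3:**
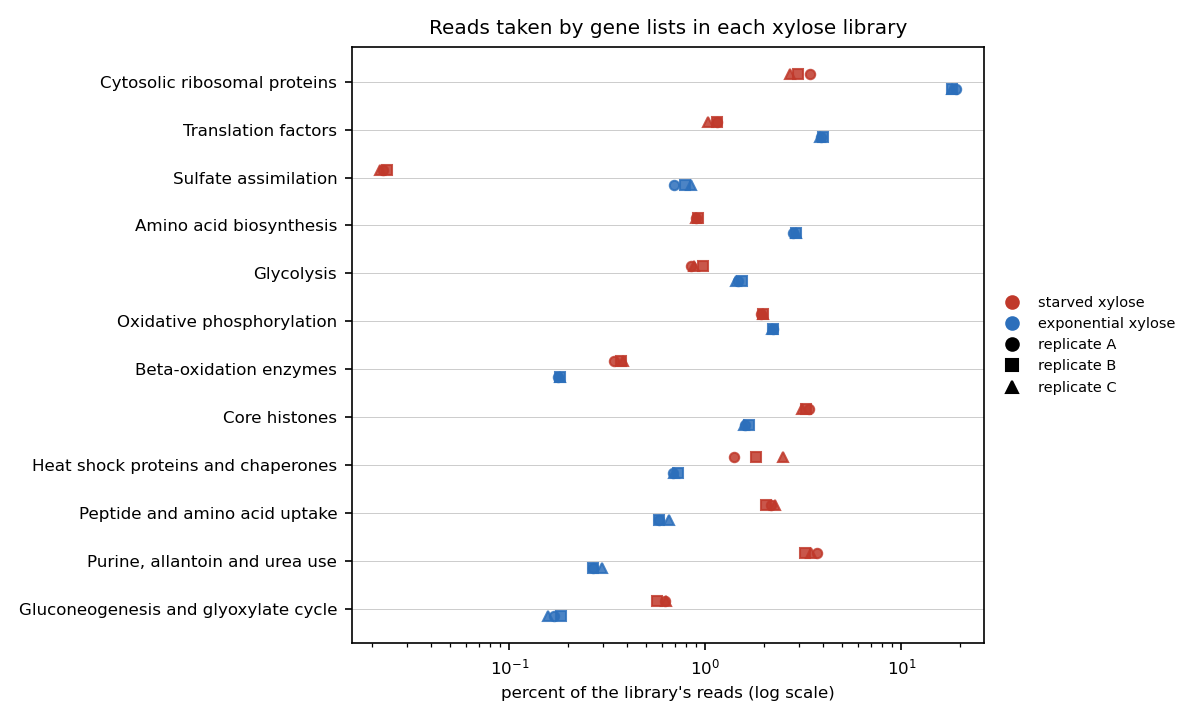
Percent of the library's reads held by 12 gene groups in the 3 starved and the 3 exponential xylose libraries, each point 1 library, on a log axis. Cytosolic ribosomal proteins averaged 3.03 ± 0.365% in starved and 18.4 ± 0.432% in exponential cultures, while purine, allantoin and urea use averaged 3.46 ± 0.245% in starved and 0.276 ± 0.0168% in exponential cultures.

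Most core histone loci rose, whereas most replication and division genes fell. hhf1, encoding histone H4, had 12462, 11261 and 11142 CPM in starved cultures, against 4434, 4376 and 4249 CPM in exponential cultures, a rise of 1.42 ± 0.08. hta1, encoding histone H2A, had 8777, 7131 and 7133 CPM in starved cultures, against 3311, 3373 and 3259 CPM in exponential cultures, a rise of 1.21 ± 0.09. htb2, encoding histone H2B, had 5605, 5011 and 4735 CPM in starved cultures, against 2923, 2977 and 2915 CPM in exponential cultures, a rise of 0.80 ± 0.09. No starved library of these 3 genes overlapped an exponential one. The variant H2A.Z (htz1) rose by 1.202 ± 0.07, and in all 7 of 8 tested histone loci rose and 0 fell (median 1.19). The histones held 3.24 ± 0.121% of the reads in starved cultures, against 1.61 ± 0.0458% in exponential cultures. Histone messages that lack a poly-A tail would not be seen in these libraries. Copies of the same histone may share reads, since how the read counter treated them is not given in the sources used here. Of 33 DNA replication genes 20 fell and 4 rose (median -0.47), with 2 rises under library totals, and the falls included rfc3, the clamp loader subunit (-1.40 ± 0.11), and pol30, the sliding clamp (-0.47 ± 0.07). Cyclins, tubulins, septins and kinesins had 16 falls and 1 rise among 22 (median -0.72). The mitotic cyclin copy clb2_2 fell by 1.74 ± 0.10, and the kinesin-like PHBOTO_006487 rose by 2.78 ± 0.12.

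Several heat shock genes were among the strongly raised. hsp104, a chaperone that dissolves protein aggregates, had 1656, 2399.8 and 4802 CPM in starved cultures A, B and C, against 22.7, 22.01 and 19.2 CPM in exponential cultures, a rise of 7.11 ± 0.58 (adjusted p = 8.66e-09). ssa4, an inducible Hsp70, had 6186, 7677 and 11938 CPM in starved cultures, against 478, 527 and 513 CPM in exponential cultures, a rise of 4.09 ± 0.35 (adjusted p = 1.47e-08). The groups did not overlap, and starved culture C was the highest library for both genes. In culture C, 13 of 4852 genes with at least 20 CPM stood 1.5-fold or more above both other starved libraries, and 3 of these were among the 21 heat shock genes at that level. hsp30, a small membrane heat shock protein, rose by 5.26 ± 0.12 and the small heat shock domain protein PHBOTO_004137 by 4.33 ± 0.26. Over this list 15 of 23 tested members rose and 4 fell (median 1.92), and it held 1.901 ± 0.554% of the reads in starved cultures, against 0.699 ± 0.0219% in exponential cultures. The falls included ssb2, the Hsp70 that works on ribosomes, with 411, 356 and 346 CPM in starved cultures, against 2695, 2797 and 2647 CPM in exponential cultures (-2.87 ± 0.09).

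Oxidative stress genes rose in 18 and fell in 8 of 32 tested members (median 0.39). The mitochondrial peroxidases divided. ccp1_2, a copy of cytochrome c peroxidase, had 806, 750.0 and 973 CPM in starved cultures, against 45.01, 49.2 and 44.9 CPM in exponential cultures (4.18 ± 0.12). prx1, the mitochondrial peroxiredoxin, had 94.9, 96.3 and 86.1 CPM in starved cultures, against 1948, 2063 and 2288 CPM in exponential cultures (-4.51 ± 0.14). Both had groups that did not overlap. In carbohydrate reserves 6 of 9 tested genes rose and 2 fell (median 1.32). The median ran from 1.097 (without exponential culture C) to 1.531 (without exponential culture B) and was 1.106 under library totals. The group's part of the reads was alike, 0.1328 ± 0.0051% in starved cultures and 0.1331 ± 0.0054% in exponential cultures. Trehalose genes rose both for synthesis, in tps1 (1.09 ± 0.10) and tps2 (1.52 ± 0.08), and for breakdown, in nth1 (1.84 ± 0.10). gsy1, glycogen synthase, had 111, 120.3 and 131 CPM in starved cultures, against 464, 488 and 458 CPM in exponential cultures (-1.96 ± 0.09), and glg2, which primes glycogen, fell by 1.48 ± 0.10.

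Cell wall genes rose in 22 and fell in 11 of 47 tested members (median 0.24), but under library totals 19 rose and 17 fell (median 0.025). The chitin deacetylase PHBOTO_000719, which turns chitin into chitosan, had 1582, 1302 and 1349 CPM in starved cultures, against 146, 140.4 and 156 CPM in exponential cultures (3.26 ± 0.12). The glucanase copy exg1_4 rose by 3.36 ± 0.13, and chs5, needed for chitin synthase traffic, fell by 2.08 ± 0.15. slt2, the kinase of the cell wall integrity pathway, had 986, 843 and 758 CPM in starved cultures, against 128, 143 and 196 CPM in exponential cultures (2.47 ± 0.18). Enzymes that degrade plant polysaccharides rose in 18 and fell in 9 of 31 tested members (median 0.94). The beta-xylanase PHBOTO_003675, which cuts the xylan backbone, had 345, 400.0 and 349 CPM in starved cultures, against 5.27, 6.17 and 5.18 CPM in exponential cultures (6.04 ± 0.19). The arabinofuranosidase PHBOTO_004942, which removes arabinose side chains, had 268, 306 and 264 CPM in starved cultures, against 21.8, 21.7 and 19.8 CPM in exponential cultures (3.73 ± 0.13). The starved libraries of the deacetylase, slt2, the xylanase and the arabinofuranosidase lay above the exponential ones. The expansins PHBOTO_001269 (-2.72 ± 0.17) and PHBOTO_001076 (-0.62 ± 0.19), proteins that loosen cell walls, fell.

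Cytochrome P450 enzymes and polyketide or peptide synthases rose in 9 and fell in 3 of 14 tested members (median 0.82). The polyketide synthase PHBOTO_001499 had 223, 213 and 297 CPM in starved cultures, against 42.1, 45.1 and 46.3 CPM in exponential cultures (2.46 ± 0.15). Transcription regulators rose in 73 and fell in 34 of 136 tested members (median 0.54). crz1_3, a copy of the calcineurin-responsive factor, had 313, 222 and 449 CPM in starved cultures, against 18.2, 22.1 and 21.5 CPM in exponential cultures (3.99 ± 0.27). PHBOTO_005207, a fungal-specific factor, rose by 4.51 ± 0.15, and PHBOTO_000558, a homeodomain factor, fell by 3.94 ± 0.24. The regulator with the highest mean was the zinc cluster protein PHBOTO_003438, which rose by 2.13 ± 0.13.

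Among the largest rises were genes outside the groups above. The guanyl-specific ribonuclease PHBOTO_001690, an enzyme that cuts RNA after guanine, had 1654, 1469 and 1526 CPM in starved cultures, against 1.43, 1.03 and 1.15 CPM in exponential cultures (10.32 ± 0.33). pet9_2, a copy of the mitochondrial ADP/ATP carrier, had 539, 422 and 539 CPM in starved cultures, against 0.374, 0.643 and 0.721 CPM in exponential cultures (9.75 ± 0.27). The hypothetical protein PHBOTO_000769 had 3400.1, 7318 and 11184 CPM in starved cultures, against 4.24, 5.59 and 5.31 CPM in exponential cultures (10.50 ± 0.71). In each the starved libraries were higher by orders of magnitude. The main copy, pet9, was the locus with the second most reads in all 3 exponential xylose libraries, and its log2 change was -0.22. Among the falls, the transporter yil166c, of unknown cargo, had 0.548, 0.228 and 0.527 CPM in starved cultures, against 745, 922 and 1254 CPM in exponential cultures (-11.13 ± 0.41). The hypothetical protein PHBOTO_002941 had 0.974, 0.4096 and 0.568 CPM in starved cultures, against 1286, 1540.2 and 1586 CPM in exponential cultures (-11.20 ± 0.39). PHBOTO_003559, a xenobiotic monooxygenase, had 11.02, 10.7 and 8.72 CPM in starved cultures, against 829.7, 993 and 1163 CPM in exponential cultures (-6.62 ± 0.25). In all 3 genes every starved library lay far below every exponential one.

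Loci without a named product took a larger place in starved cultures. They held 16.8, 16.9 and 17.1% of the reads in starved cultures A, B and C, and 10.2, 10.2 and 10.4% in the exponential ones. Of the 5805 tested loci 20.7% were hypothetical proteins, against 28.5% of the 645 genes that rose at least 4-fold (11.1% of tested genes) and 13.3% of the 347 that fell at least 4-fold (5.98% of tested genes). At the 16-fold limit the shares were 29.1% of 182 rises and 23.8% of 42 falls. These shares are a description and were not tested.

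Copies that share a gene name spanned a wide range of changes in some families. Of 38 named families with at least 4 tested copies, 28 held both a rise and a fall. With 40.6% of all tested genes up and 40.6% down, that count is not read as a trait of the families. In the peptide transporters the changes ran from -4.38 in opt1_4 to 13.45 in opt1_2. opt1_2 had 1489, 1416 and 1586 CPM in starved cultures, against 0.0623, 0 and 0.328 CPM in exponential cultures. In the dicarboxylic amino acid permeases they ran from -7.46 in dip5_3 to 4.66 in dip5_4, and in the nicotinic acid transporter family from -5.56 in tna1_9 to 2.58 in tna1_8. The mitochondrial aldehyde dehydrogenases ran from -2.29 in ald4 to 4.99 in ald4_3. A family with a single direction was that of the polyamine transporters, in which 8 of 8 copies of tpo3 rose, by 2.15 to 8.11.

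Large rises also lay side by side on the chromosomes, as far as consecutive locus tags show it. Runs of at least 4 consecutive loci that each rose at least 4-fold numbered 10 and held 52 loci (11.1% of tested genes rose by as much). There was no such run of falls, but only 5.98% of tested genes fell by as much. Whether runs differ between the directions was not tested. The longest ran over 11 loci, PHBOTO_006514 to PHBOTO_006524. It holds fas2, a P450 annotated as isotrichodermin hydroxylase (PHBOTO_006516), an acetyltransferase (PHBOTO_006519), a glycosyltransferase (PHBOTO_006524) and an ABC transporter (ste6_3). These functions are of the kinds found in clusters for secreted metabolites, and the product is not known from these data. fas2 had 205, 235 and 211 CPM in starved cultures, against 20.6, 21.3 and 19.3 CPM in exponential cultures (3.41 ± 0.10). ste6_3 had 33.00, 48.9 and 39.2 CPM in starved cultures, against 2.68, 3.12 and 4.296 CPM in exponential cultures (3.59 ± 0.18). PHBOTO_006524 had 39.5, 46.1 and 35.2 CPM in starved cultures, and its 2529 reads over those 3 libraries stood against 2 reads over the 3 exponential ones. Of the same run erg11_3 had 1375 reads over the starved and 1 over the exponential libraries, and gre2_2 had 1244 over the starved and 2 over the exponential libraries.

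The second run, PHBOTO_002762 to PHBOTO_002767, joins the P450 PHBOTO_002762 and the membrane protein ynr062c to 3 hypothetical proteins and the reductase copy ifa38_2. ynr062c had 4359, 2742 and 3837 CPM in starved cultures, against 0.842, 0.803 and 0.721 CPM in exponential cultures (12.16 ± 0.33). PHBOTO_002763 had 10326, 5944 and 8222 CPM in starved cultures, against 50.1, 43.5 and 47.6 CPM in exponential cultures (7.44 ± 0.28). The third, PHBOTO_004536 to PHBOTO_004541, joins an amine oxidase (3.88 ± 0.13), a choline transporter copy (hnm1_2, 3.28 ± 0.17) and a monocarboxylate transporter (4.65 ± 0.26) to 3 hypothetical proteins. Of the shorter runs, 1 holds 4 of the MEL genes, 1 holds carboxypeptidase Y (prc1) with the carboxypeptidase copy ybr139w_4, and 1 holds atg9 with an aldehyde dehydrogenase (ald2).

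**Figure D4:**
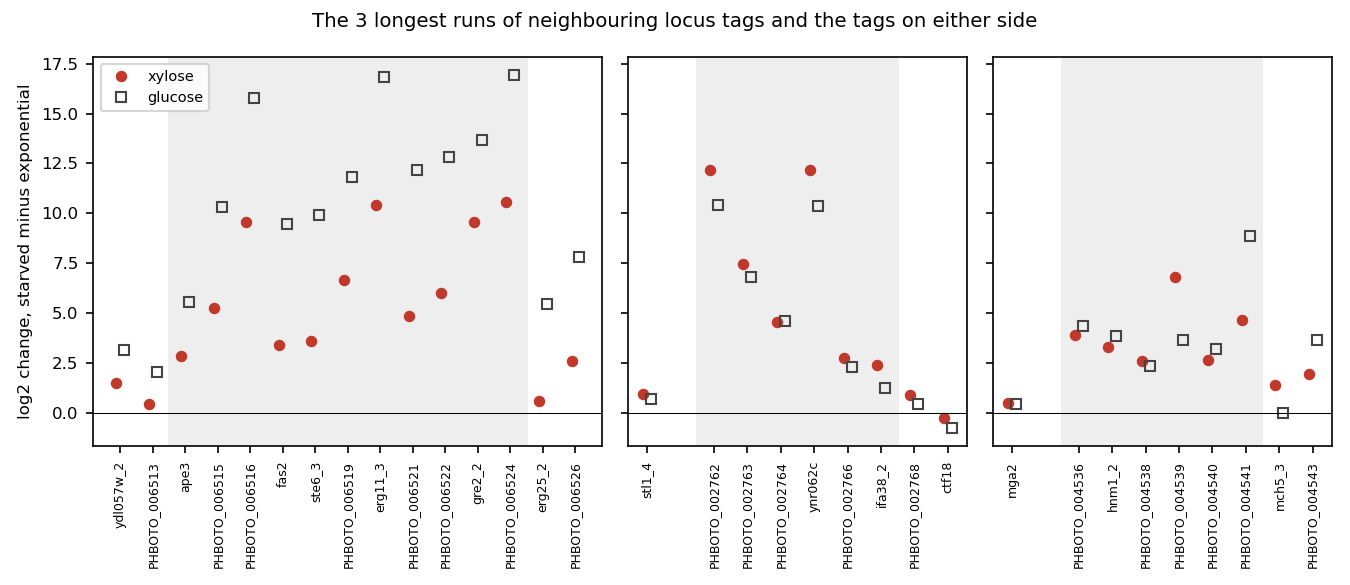
Log2 change, starved over exponential, on xylose (filled circles) and on glucose (open squares) of each tested locus in the 3 longest runs (shaded) and beside them, in the order of the locus tags. On xylose every shaded locus rose at least 4-fold, with changes from 2.41 to 12.18 in the second run, and on glucose all 11 loci of the longest run lie higher than on xylose; its values for erg11_3, gre2_2 and PHBOTO_006524 rest on at most 2 reads in the exponential xylose libraries.

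Starvation on xylose and on glucose changed many of the same genes to different extents. The interaction, the log2 change on xylose minus that on glucose, was called for 2218 genes (38.2% of those tested), 1262 positive (21.7%) and 956 negative (16.5%). It was at least 2-fold in 9.34% of tested genes. On glucose 81.2% of tested genes changed. Under scaling by library totals the split was 937 positive and 1260 negative, with the median of all interactions shifted by -0.119, so the balance between the signs depended on the scaling. Of the genes called on xylose, 3996 were called in the same direction on glucose, 147 in the opposite direction and 574 only on xylose, of which 301 had a called interaction. A similar number, 571, were called only on glucose, of which 310 had a called interaction. Across genes the 2 log2 changes had a Pearson correlation of 0.88, a description of genes that are not independent.

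Groups whose members had called interactions differed in sign. Of 79 cytosolic ribosomal proteins 71 had a positive interaction and 0 a negative one. Their median change was -2.48 on xylose and -3.29 on glucose, and under library totals 65 were positive. Mitochondrial ribosomal proteins had 30 positive and 0 negative among 47, with medians of -1.21 on xylose and -1.57 on glucose. Heat shock proteins and chaperones had 16 positive and 1 negative among 23, and cell wall genes 18 positive and 1 negative among 47. Oxidative phosphorylation had 19 positive and 0 negative among 34, and the tricarboxylic acid cycle 8 positive and 0 negative among 17. The pentose phosphate pathway had 1 positive and 7 negative among 11, and MEL synthesis 0 positive and 4 negative among 5. Under library totals the positive and negative counts were 22 and 0 for mitochondrial ribosomal proteins and 16 and 3 for heat shock proteins. By that scaling they were 16 and 3 for cell wall genes, 15 and 1 for oxidative phosphorylation and 6 and 0 for the tricarboxylic acid cycle. The pentose phosphate pathway had 0 and 7 and MEL synthesis 0 and 4. mac1, an acyltransferase of MEL synthesis, rose by 6.28 ± 0.15 on xylose and by 9.15 ± 0.18 on glucose (interaction -2.87 ± 0.23).

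Several genes of carbon flow responded more on xylose. The alternative oxidase PHBOTO_002482 had 4765 ± 405 CPM in starved and 104 ± 9.65 CPM in exponential xylose cultures, whereas on glucose it had 2473 ± 781 CPM in starved and 902 ± 128 CPM in exponential cultures (interaction 4.06 ± 0.26, adjusted p = 1.71e-08). mae1 had 1299 ± 88.2 CPM in starved and 119.5 ± 24.6 CPM in exponential xylose cultures, and 551 ± 193 CPM in starved and 521 ± 71.3 CPM in exponential glucose cultures (interaction 3.36 ± 0.29, adjusted p = 3.89e-07). pck1 rose by 4.35 ± 0.22 on xylose and by 1.30 ± 0.20 on glucose (interaction 3.04 ± 0.28). For both the alternative oxidase and mae1 the exponential mean was lower on xylose than on glucose. The starved mean of both genes was higher on xylose, and these differences are given here without a test. The beta-xylanase PHBOTO_003675 (interaction 4.28 ± 1.05) and the arabinofuranosidase PHBOTO_004942 (interaction 4.09 ± 0.22) also had larger changes on xylose.

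Some of the 147 genes with opposite called directions on the 2 sugars are given here. acc1 fell by 1.25 ± 0.09 on xylose and changed by 0.65 ± 0.09 on glucose (interaction -1.90 ± 0.12, adjusted p = 1.95e-08). slt2 rose by 2.47 ± 0.18 on xylose and changed by -1.54 ± 0.17 on glucose (interaction 4.01 ± 0.25). The histones hta1 (1.21 ± 0.09 on xylose and -0.40 ± 0.09 on glucose) and htb2 (0.80 ± 0.09 on xylose and -0.80 ± 0.09 on glucose) did the same. Of the 8 histone loci 3 rose and 3 fell on glucose, and 6 had a positive interaction. Chaperones of the mitochondrial matrix, chosen after their values were seen, formed a further set. hsp60, which folds imported proteins, had 334, 404 and 567 CPM in starved xylose cultures, against 222, 274 and 219 CPM in exponential xylose cultures (0.87 ± 0.19), while its change on glucose was -0.84 ± 0.19. In that set hsp10, ssc1, mdj1 and mge1 also rose on xylose, by 0.52 to 1.19, and fell on glucose. The rise of ssc1 was not called without starved culture C or under library totals (0.31 in both).

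The neighbours PHBOTO_006510 (transaldolase) and PHBOTO_006511 (mannose-6-phosphate isomerase) fell on xylose and rose on glucose. PHBOTO_006511 had 69.8, 47.1 and 61.7 CPM in starved xylose cultures, against 961, 891 and 795 CPM in exponential xylose cultures. On glucose it had 5.35 ± 3.55 CPM in starved and 1.05 ± 0.235 CPM in exponential cultures. dld1, the D-lactate dehydrogenase, had 15.5, 15.2 and 13.2 CPM in starved xylose cultures, against 242, 271 and 195 CPM in exponential xylose cultures (-4.02 ± 0.13), and its change on glucose was 1.10 ± 0.12. dur3_2, a urea transporter copy, had 0.122, 0.4096 and 0.771 CPM in starved xylose cultures, against 413, 497 and 659.9 CPM in exponential xylose cultures. Its log2 change was -10.10 ± 0.36 on xylose and -2.49 ± 0.58 on glucose (interaction -7.60 ± 1.195, adjusted p = 1.67e-04).

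**Figure D5:**
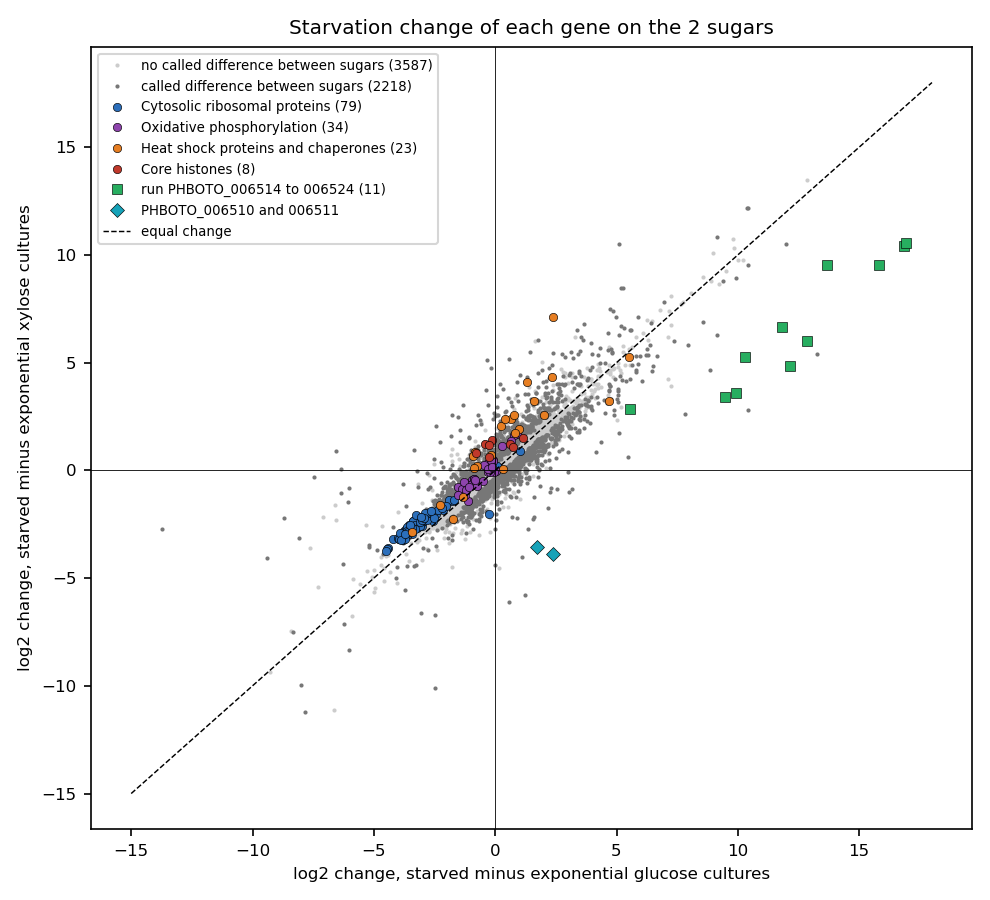
Log2 change on starvation on xylose (vertical) against that on glucose (horizontal) for all 5805 tested genes, each point 1 gene, darker where the interaction was called and coloured for 4 gene groups, the longest locus run and PHBOTO_006510 with PHBOTO_006511; the dashed line marks equal change. Cytosolic ribosomal proteins and histones lie mostly above the line, and the 11 loci of the run and both single loci below it.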

How the data were processed

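Each library's RNA was sequenced by the submitters. Their processing notes name bcl2fastq 2.20.0.422, Trim Galore 0.6.1, cutadapt 2.3, HISAT2 2.2.1 and DESeq2, while read counter, strand setting and genome build are not given there. The deposited table of the authors holds raw counts per locus, per the file headers, beside their normalized signal, log2 fold changes, test score and p-values. Only the counts were analysed; the authors' p-values were compared with the calls made here, and 4711 genes were called in the same direction in both and 0 in opposite directions.

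edgeR 4.0.16 (R 4.3.3) was fitted to all 12 libraries with 1 coefficient per group, filterByExpr (count minimum 10), TMM scaling and the quasi-likelihood test, with Benjamini-Hochberg adjustment over 5805 loci and a threshold of 0.05. Each SE was taken as the size of the log2 change over the root of the F statistic. CPM uses TMM-scaled library sizes. With 18571189 reads or more per xylose library, counting error is small for genes above 20 CPM. The labels name separate biological replicates, and chi-square per degree of freedom between xylose replicates was at least 18.2, so no pair agreed within sampling noise.

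The members and gene lists were chosen with earlier results of these data known. Lists were matched on product and gene names. Named genes are the 12 largest rises and falls with a product (at least 20 CPM, no overlap of replicates), 3 of each without, the whole of short lists and the most changed, opposing and highest members of longer ones, the 8 most positive and 8 most negative interactions, and the 3 longest locus runs. Genes used for group ranges and family ends lie outside that rule and were chosen after their values were seen. The fit was also run on counts simulated from its own model, with a small set of genes changed in the starved xylose libraries only. That run cannot tell how the scaling holds when most genes change, as they did here. Alternatives were other scalings, filters and tests, a replicate block and leaving out each library.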

Additional observations from a re-analysis of the deposited data

Results flagged for a closer look

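The genes below were flagged because their change on starvation differed between xylose and glucose. The test was that of the interaction (log2 change on xylose minus that on glucose, edgeR's quasi-likelihood test with Benjamini-Hochberg adjustment). They were drawn only from the named genes, either among the most extreme interactions or with called changes in opposite directions, so they are not a full list. The mitochondrial chaperones among them were chosen after their values were seen. No group has more than 3 libraries, so no test for a single outlying library was made.

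Negative interactions were found in 4 loci of the longest run, which rose on both sugars and less on xylose. The values were -6.38 in PHBOTO_006524, -6.35 in ste6_3, -6.25 in PHBOTO_006516 and -6.04 in fas2, and dur3_2, outside the run, which fell on both sugars and more on xylose, had -7.60. The value of PHBOTO_006524 rests on 2 reads in the exponential xylose libraries, and its call was lost without exponential culture A (-6.08) or C (-6.05). Genes that fell on xylose and rose on glucose had interactions of -6.28 in PHBOTO_006511, -5.32 in PHBOTO_006510, -5.12 in dld1, -1.90 in acc1 and -0.76 in rpe1, which encodes ribulose-phosphate epimerase.

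Positive interactions among the most extreme were 4.75 in hsp104, 4.28 in PHBOTO_003675, 4.09 in PHBOTO_004942, 4.06 in PHBOTO_002482, 4.01 in slt2, 3.45 in PHBOTO_001166 (a likely protein kinase), 3.38 in mch5_2 (a copy of a riboflavin transporter) and 3.36 in mae1. Named genes that rose on xylose and fell on glucose included, beside slt2, the histones hta1 at 1.61, htb2 at 1.6 and hht1_4 at 1.42. The mitochondrial chaperones mge1 at 1.73, hsp60 at 1.71, mdj1 at 1.65, hsp10 at 1.57 and ssc1 at 1.52 did so too.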

How the results depend on the processing

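The count of genes called on xylose (4717) lay between 4543 and 4840 when each library was left out, with 2224 to 2423 rises and 2273 to 2417 falls. Only the count of falls moved by over 1.5 times, under 1 alternative, the test against a 1.5-fold change. That test called 1541 falls in place of 2359, and 3158 genes in all, because it asks for a larger change. Scaling by library totals moved the median of all genes to -0.21 and gave 1967 rises and 2747 falls. Interaction counts (2218) ran from 1817 to 2550 without a library, 990 to 1401 positive and 771 to 1149 negative. Under library totals 1 of 312 called named genes changed sign, cat2_2 (-0.008), as did 6 of 17 that were not called. Of 44 group medians 4 changed sign, those of acetyl-CoA supply and fatty acid synthesis (-0.075, against 0.136), the carnitine shuttle (-0.008, against 0.208), sphingolipid synthesis (-0.124, against 0.09) and iron, copper and zinc uptake (-0.192, against 0.022). The fatty acid median ran from -0.042 (without starved culture C) to 0.248 (without starved culture A) when a library was left out. Of 312 called named genes 280 kept call and direction in every setting, and 32 lost the call in at least 1. Same-lettered replicates are not stated to share a batch, and their deviations correlated at 0.32 (A), 0.16 (B) and -0.05 (C) on xylose, where starved A and B but not C correlated best with the exponential library of their own letter, while exponential B correlated best with starved C (0.295). The fit with a replicate block called 4696 genes, 2346 up and 2350 down, and 2162 interactions, 1231 positive and 931 negative. Depth limits genes with few reads, whose folds rest on a handful of counts.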
